A study of Rattus norvegicus with 6 samples.

Results

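The comparison described here set hippocampal RNA taken at day 35 of chronic cerebral hypoperfusion against RNA taken at day 21, using 1 one-colour Agilent array for each, 2 of the 6 arrays in the series. Both pools came from male Wistar rats whose common carotid arteries had been permanently tied on both sides under isoflurane, a procedure called BCCAo, so the occlusion was still in place at day 35 and at day 21 alike. Per the labels the animals were 14 weeks old at day 35 and 13 weeks old at day 21, ages closer together than the days between the pools. RNA was pooled before labelling, and how many animals made up a pool is not stated in the labels. The other arrays held a control pool of 12 weeks and pools of days 45, 55 and 70, and the labels do not say whether the control had a sham operation. The arrays of day 35, day 21 and the control lay on one slide and those of days 45, 55 and 70 on another, so for any comparison across them slide and time cannot be told apart. Of 17488 genes on the array, 13878 could be compared between day 35 and day 21, of which 12998 were well above background and unsaturated on both arrays. The other 880 gave only a lower bound of the difference, 3556 were not well above background on either array and 54 were saturated on both.

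Carotid ligation lowers blood flow to the forebrain without cutting it off, and the hippocampus, whose CA1 neurons are known to be sensitive to poor supply, is one of the structures examined in this model. Microglia, the resident macrophages of the brain, respond to such stress by raising genes for phagocytosis, complement and antigen presentation, and astrocytes by raising genes for intermediate filaments and acute-phase proteins. When a stimulus passes, such genes may come back fully, in part, or overshoot. Here the return was read from day 35 against the day 21 array and the 3 later arrays, and the control array served as no baseline and is printed only as a level.

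The levels below are log2 processed signals with the 75th percentile of each array set to 0, and a step is the day 35 level minus the day 21 level, so a negative step means lower at day 35. With 1 array on each side there is no spread between animals, no test and no p-value. Probes printed 10 times had a median SD between spots of 0.056 at day 35 and 0.058 at day 21, which alone would give a step an SD of 0.080, and this covers spot error only. The 75th percentile of the signal was 1504 intensity units at day 35 and 1243 at day 21, with 80.0% and 78.3% of spots well above background on those 2 arrays. Markers of the labelled tissue were present on both arrays. The CA1 gene Fibcd1 stood at 4.02 at day 35 and 3.53 at day 21, the pyramidal cell transcription factor gene Neurod6 at 2.01 and 1.58 on the same arrays, and the dentate granule cell gene C1ql2 at 1.07 and 0.52. Since RNA of whole tissue was measured, fewer cells of a type and less RNA per cell cannot be told apart.

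The step was one-sided. At day 35, 617 genes were at least 2-fold lower than at day 21, 4.45% of the 13878 compared, and 143 were at least 2-fold higher, 1.03% of them. The median step of all genes was 0.02, and the SD over genes measured on both arrays was 0.45. At a threshold of 4-fold 146 genes were lower and 17 higher, and at 8-fold 42 were lower and 5 higher, of which 21 and 1 were measured on both arrays. Among the 459 lower genes measured on both arrays, day 21 was the highest of the 6 arrays in 436, or 95.0%. The share over all genes compared was 25.1%, and choosing genes for a high day 21 level raises the former by construction. The 158 other lower genes and 69 of the higher ones are bounds. A bound holds for the main values only, since it depends on how dim signals were processed. Of the lower genes, 410 were in the dimmest, 154 in the middle and 53 in the brightest of 3 equal groups of genes by mean level, and of the higher genes 127, 14 and 2. Of the 459 lower genes measured on both arrays, 258 were also at least 2-fold lower with normexp background correction and in the authors' deposited value table. Of the 74 higher genes so measured, 10 were also at least 2-fold higher in both. Of the 116 genes at least 2-fold apart that the rule for named genes picked, 30 were under 2-fold with normexp correction and 12 in the authors' deposited table. Among those described below, Irf8, Ifit3, Kcnn4, Kcnj13, Cdk1, Casp1, Car15, Zfp516 and Lce1e were under 2-fold with normexp only. Hmox1, Hk2, Adm, F5 and Hif3a were under 2-fold in both. Where lower genes had another probe measured on both arrays, 49 of 55 such probes were lower at day 35 and 30 of them at least 2-fold lower, with a median step of -1.07, whereas 2.79% of the second probes of all genes were. The higher genes had 8 such probes, of which 6 were higher and 2 at least 2-fold higher, with a median step of 0.22, against 0.890% of the second probes of all genes. Just inside the threshold lay Adm with a step of -1.00056 and Numbl with 1.01, and just outside it Havcr2 with -0.9995.

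**Figure D1:**
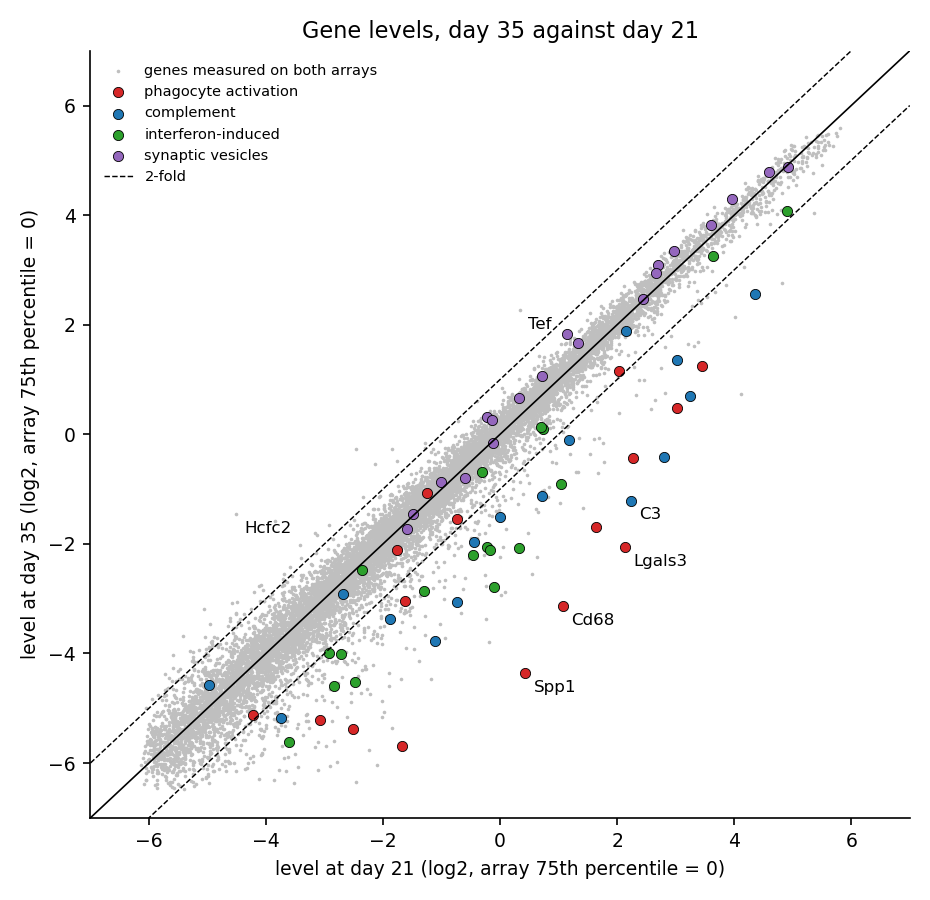
Level of each gene measured on both arrays at day 35 (vertical axis) against day 21 (horizontal axis), log2 with the 75th percentile of each array at 0; the solid line marks equality and the dashed lines 2-fold. Phagocyte (red), complement (blue) and interferon-induced genes (green) lie mostly below the lower dashed line, with Spp1 27.7-fold lower, while synaptic vesicle genes (purple) lie close to equality.

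The step can be set beside the other steps between neighbouring time points, each of which is also 1 array against another. Day 55 against day 45 gave 99 lower and 117 higher genes, and day 70 against day 55 gave 128 lower and 119 higher, both within the second slide. Those steps had SDs of 0.28 and 0.27 over genes. Day 45 against day 35 gave 537 lower and 103 higher genes with an SD of 0.34, but these arrays lay on different slides. At 4-fold that step had 47 lower and 29 higher genes, against 146 lower and 17 higher for day 35 against day 21.

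Genes of activated phagocytes had the lowest median of the 38 lists examined. Their median step was -2.54, a level 5.83-fold lower at day 35, and 14 of 19 members compared were at least 2-fold lower and none higher. Spp1 encodes osteopontin, a secreted glycoprotein of activated microglia and macrophages, and its probe (rn4 chr14:6422382-6422441, minus strand) was read from 10 spots. It stood at -4.36 ± 0.11 at day 35 against 0.43 ± 0.04 at day 21 (SD over spots, 10 spots on each array), a step of -4.79 or 27.7-fold. On the 3 later arrays Spp1 stood at -4.96, -4.42 and -5.33 at days 45, 55 and 70, and on the control array at -5.72. The day 35 level was therefore 0.60 above the median of the later arrays and close to day 55. Cd68, which encodes a lysosomal glycoprotein of macrophages (probe at rn4 chr10:56481726-56481785, minus strand), stood at -3.13 at day 35 against 1.07 at day 21, 18.4-fold lower. Lgals3, the gene of the sugar-binding protein galectin-3 (rn4 chr15:23338947-23339006, plus strand), stood at -2.05 at day 35 against 2.13 at day 21, 18.2-fold lower. Both were within 0.5 log2 of the median of the later arrays at day 35, with Cd68 between -3.43 and -3.16 and Lgals3 between -2.23 and -1.06 on those arrays. Glipr1 stood at -5.69 at day 35 against -1.68 at day 21 and Gpnmb, a membrane glycoprotein gene of phagocytes, at -1.70 against 1.63 on the same arrays. The lipid-sensing receptor gene Trem2 and the gene of its adaptor Tyrobp had steps of -2.54 and -2.20. Tfec, which encodes a macrophage relative of the factor MITF, was not well above background at day 35 and stood at -1.96 at day 21. In the main values it was at least 22.8-fold lower, a step of -4.51, but its step was -2.19 with normexp correction. Siglec1, which encodes the sialic acid receptor sialoadhesin of macrophages and was read from 10 spots, was likewise at least 17.1-fold lower. It was well above background on the day 21 array alone, at -2.37. The Siglec1 step of -4.10 in the main values was -2.14 with normexp correction and -2.94 in the authors' deposited table.

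Genes that mark surveying, or homeostatic, microglia stepped down by less. Their median step was -0.85 and 6 of 14 were at least 2-fold lower, none higher. Aif1, which encodes the microglial protein Iba1, stood at 1.65 at day 35 against 3.20 at day 21, a step of -1.55, and its other probe had a step of -1.66. P2ry12, a nucleotide receptor gene of resting microglia, stood at -0.06 at day 35 against 1.36 at day 21. Itgam, the gene of the integrin subunit CD11b, had a step of -1.28, and -2.19 at its other probe. Irf8, a transcription factor gene needed for microglia, was a bound of at least 5.08-fold lower, but its step was -0.83 with normexp background correction, under 2-fold, and -1.27 in the authors' deposited table. Tmem119, another microglial marker read from 10 spots, had a step of 0.22, and the fractalkine receptor gene Cx3cr1 one of -0.50. Of the 14 genes, day 21 was the highest of the 6 arrays in 12, beside 25.1% of all genes compared. The group held both genes that moved past 2-fold and genes, such as Tmem119, that did not follow.

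Leukocyte signalling and Fc receptor genes were all below their day 21 level at day 35. The median step was -1.58, and 15 of 19 were at least 2-fold lower. Fcgr2b, the inhibitory receptor for IgG, was read from 10 spots and stood at -2.93 at day 35 against 0.02 at day 21, a step of -2.95 with -1.5 at its other probe. Ptprc, the gene of the leukocyte phosphatase CD45, stood at -4.35 at day 35 against -1.90 at day 21, and Fcer1g, the common signalling chain of Fc receptors, at 0.47 against 2.58 on the same arrays. The 14 members that were at least 2-fold lower and measured on both arrays all lay within 0.5 log2 of the later level at day 35.

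Complement genes had the second-lowest median step, -1.67 (3.18-fold), with 14 of 17 at least 2-fold lower and none higher. C3, the central component on which all complement pathways meet, stood at -1.21 at day 35 against 2.23 at day 21, 10.9-fold lower. C3 then stood at -0.17, -0.58 and -0.57 at days 45, 55 and 70, and the day 35 array was the lowest of the 6, the control included at -0.66. The C1 inhibitor gene Serping1 stood at -0.41 at day 35 against 2.81 at day 21, 9.32-fold lower. Cfd, the factor D protease of the alternative pathway, had a step of -2.66 and C4a, of the classical pathway, one of -2.54. The 3 chains of C1q, which starts the classical pathway and which microglia make, stepped down together, C1qa by -1.67, C1qb by -1.78 and C1qc by -1.5.

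The 2 lists of antigen presentation genes differed in their median step. Class II molecules, which present peptides to helper T cells, had a median step of -1.46 with 4 of 7 at least 2-fold lower. Another 3 of that list were not well above background on either array. Their invariant chain gene Cd74 (rn4 chr18:56765468-56765527, plus strand) stood at -2.55 at day 35 against 0.54 at day 21, 8.52-fold lower. RT1-Da stood at -4.88 at day 35 against -2.02 at day 21, and RT1-Bb had a step of -2.78 but -1.07 at its other probe. RT1 genes are alike and their probes may read more than 1 of them. Class I and immunoproteasome genes, which supply peptides to cytotoxic T cells, had a median step of -0.42, and 2 of 12 were at least 2-fold lower. These were the class I light chain gene B2m, at 2.72 at day 35 against 3.85 at day 21, and the immunoproteasome subunit gene Psmb9, at -1.29 against -0.02 on the same arrays.

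Interferon-induced genes were lower at day 35 in all 19 members compared, with a median step of -1.55 and 13 of 19 at least 2-fold lower. Rsad2, which encodes the antiviral enzyme viperin, stood at -2.78 at day 35 against -0.10 at day 21. Isg15, a ubiquitin-like modifier, stood at -2.07 at day 35 against 0.33 at day 21, and the 2'-5' oligoadenylate synthetase gene Oas1a at -4.53 against -2.49 on the same arrays. At day 35 the group stood a little under the later arrays, with a median of -0.22 over 18 members. Isg15 was at -1.45, -1.71 and -1.70 at days 45, 55 and 70, and all 3 of those levels lie above the day 35 one.

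Many interferon-induced genes carry the interferon-stimulated response element (ISRE). The promoters of the lower genes were searched for its core, which reads GAAA, any 2 bases and GAAA again, on either strand in the 250 bases before the RefSeq start of each gene. Of 472 lower genes with a promoter in the table, 47 held the core, 9.96%, against 2.69% of the promoters of all 11256 genes compared. The 118 higher genes with a promoter held it in 5.08%, which is 6 genes. For the PU.1 core GAGGAAG the shares were 14.4% of lower genes and 11.1% of all, for the NF-kappaB core, which reads GGGA, any 4 bases and CC, 22.9% and 21.1%, and for the inverted CCAAT letters GATTGG of class II promoters 14.6% and 17.6%. A match describes letters in this window and shows no binding. The promoters of 5 lower genes with a match are printed because, of the motifs given here, the ISRE core had the share that differed most. They are written 5' to 3' in GRCr8 as RefSeq gives them, with matches to the core in capitals. They belong to the chemokine gene Cxcl10 (chr14:15988816-15989065, plus strand), Rsad2 (chr6:48788121-48788370, minus strand), Oas1a (chr12:41330216-41330465, plus strand), the antiviral gene Ifit3 (chr1:241527076-241527325, plus strand) and B2m (chr3:129549080-129549329, plus strand).
Cxcl10: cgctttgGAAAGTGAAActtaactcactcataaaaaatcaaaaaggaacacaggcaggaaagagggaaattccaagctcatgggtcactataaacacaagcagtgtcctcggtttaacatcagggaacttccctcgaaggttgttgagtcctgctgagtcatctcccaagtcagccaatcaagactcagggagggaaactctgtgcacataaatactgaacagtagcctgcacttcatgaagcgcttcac
Rsad2: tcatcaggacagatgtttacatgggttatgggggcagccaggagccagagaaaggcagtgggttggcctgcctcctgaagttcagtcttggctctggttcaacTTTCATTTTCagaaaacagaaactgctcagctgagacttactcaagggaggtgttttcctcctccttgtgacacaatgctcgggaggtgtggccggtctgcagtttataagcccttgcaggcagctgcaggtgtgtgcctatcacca
Oas1a: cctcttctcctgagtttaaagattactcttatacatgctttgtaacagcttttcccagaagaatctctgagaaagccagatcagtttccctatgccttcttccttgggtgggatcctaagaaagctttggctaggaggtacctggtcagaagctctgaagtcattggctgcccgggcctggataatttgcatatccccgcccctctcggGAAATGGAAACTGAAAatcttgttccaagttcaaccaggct
Ifit3: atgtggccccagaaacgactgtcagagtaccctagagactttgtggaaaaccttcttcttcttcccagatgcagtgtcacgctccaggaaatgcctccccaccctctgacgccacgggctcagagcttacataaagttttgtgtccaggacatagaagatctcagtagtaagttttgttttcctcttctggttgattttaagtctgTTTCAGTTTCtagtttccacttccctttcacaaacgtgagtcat
B2m: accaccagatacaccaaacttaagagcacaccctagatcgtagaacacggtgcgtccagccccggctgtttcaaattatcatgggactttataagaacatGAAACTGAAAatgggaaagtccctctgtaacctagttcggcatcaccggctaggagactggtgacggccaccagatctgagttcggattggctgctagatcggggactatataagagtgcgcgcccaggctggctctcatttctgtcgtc
In Oas1a 2 matches overlap and run together, starting at positions -41 and -35 from the gene start, in Ifit3 and Rsad2 the match is on the other strand, and in B2m it starts at position -150. The steps of these genes were at least 13.2-fold lower for Cxcl10, 6.43-fold for Rsad2, 4.12-fold for Oas1a, 4.0-fold for Ifit3 and 2.20-fold for B2m. The Cxcl10 step of -3.73 in the main values was -1.85 with normexp correction and -2.51 in the authors' deposited table.

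Among cytokines and chemokines 12 of 20 were at least 2-fold lower, with a median step of -1.26, and 8 of the 20 steps are bounds. Ccl2, the monocyte-attracting chemokine, was read from 10 spots at day 35 and 9 at day 21, was not well above background at day 35 and stood at -2.46 at day 21, so it was at least 16.1-fold lower. Ccl3, another chemokine of activated microglia, was at least 12.2-fold lower and the B cell chemokine gene Cxcl13 at least 6.35-fold lower. The steps of Ccl2, Ccl3 and Cxcl13 were -4.01, -3.61 and -2.67 in the main values. With normexp correction they were smaller, -2.22, -1.79 and -1.31. Cxcl10 was well above background again on all 3 later arrays, at -4.94, -6.18 and -5.97 at days 45, 55 and 70, Ccl3 at days 45 and 70, Ccl2 at day 55, and Cxcl13 on none of them. The inflammatory cytokine gene Tnf had a step of -0.24.

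**Figure D2:**
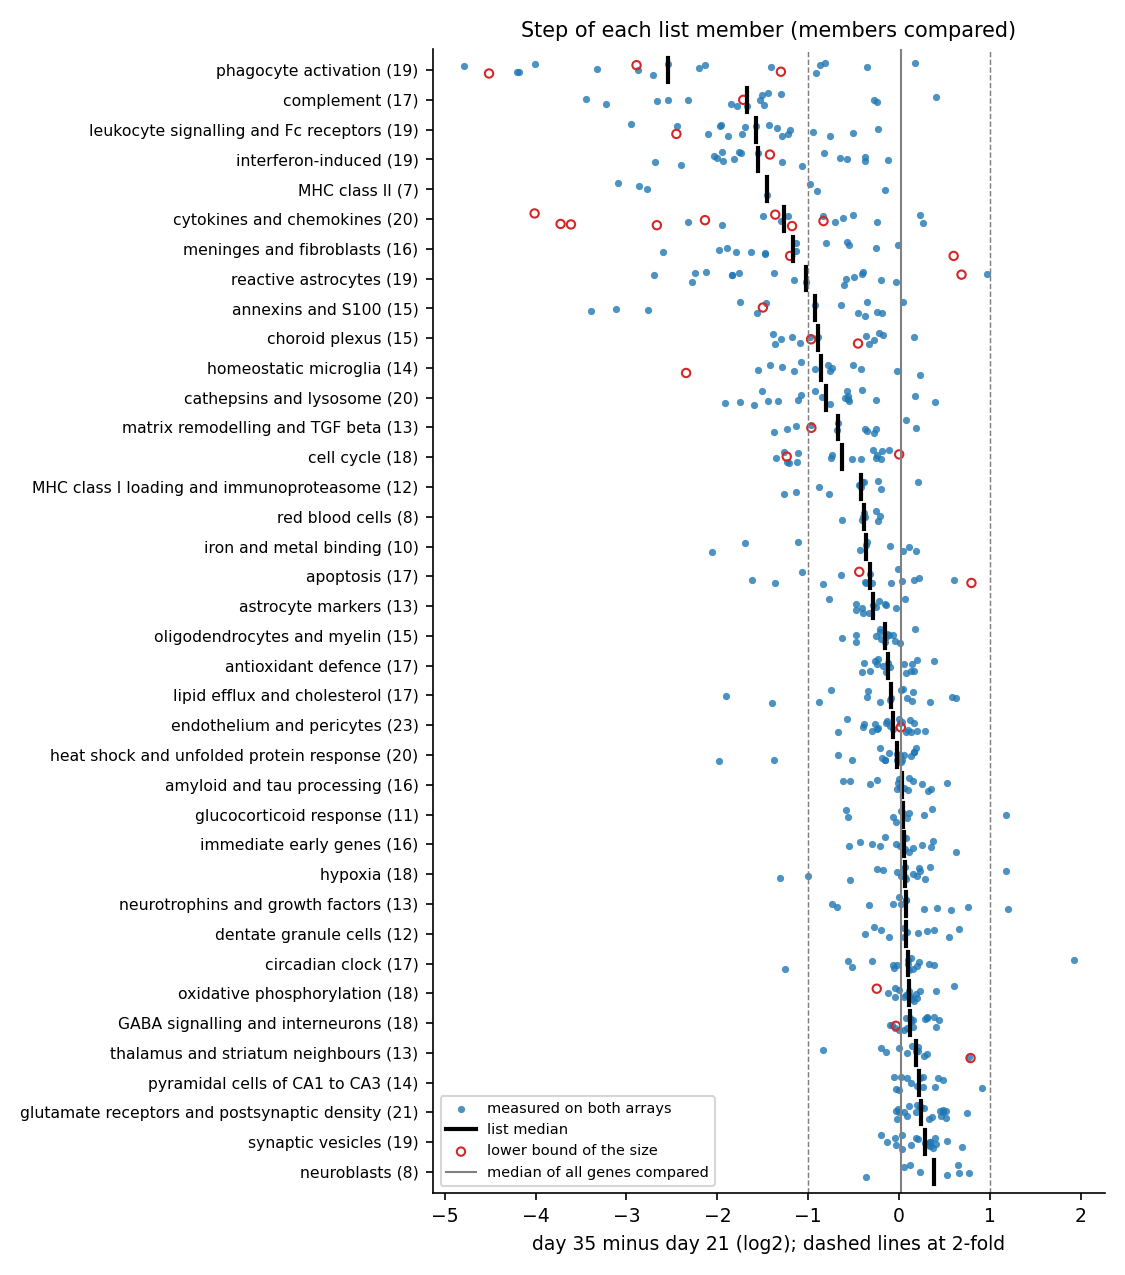
Step, day 35 minus day 21 in log2, of every compared member of 38 gene lists, with filled points for genes measured on both arrays, open points for lower bounds, black bars for list medians and dashed lines at 2-fold. Phagocyte, complement, leukocyte and interferon-induced lists lie to the left with medians of -2.54 to -1.55, and neuronal lists gather near the median of all genes, 0.02.

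Reactive astrocyte genes were lower as well, with a median step of -1.02 and 10 of 19 at least 2-fold lower. Vim, the intermediate filament vimentin, was read from 8 spots at day 35 and 10 at day 21 and stood at -1.25 at day 35 against 1.02 at day 21. Gfap, the glial filament gene, stood at -0.30 at day 35 against 0.85 at day 21, 2.22-fold lower over 10 spots. Lcn2, the iron-carrier-binding protein lipocalin 2, stood at -4.59 at day 35 against -1.90 at day 21, with -5.18, -5.03 and -5.23 at days 45, 55 and 70. Cd44, the hyaluronan receptor, had a step of -2.12 at its main probe and -0.47 at its other. Ceruloplasmin (Cp) had one of -2.24, with -4.00 and -2.23 at other probes. General astrocyte markers had a median step of -0.29 and none of 13 reached 2-fold at its main probe. The water channel gene Aqp4 had a step of -0.77 there, but -1.13 and -1.02 at other probes, both past 2-fold. By the list medians, the markers of astrocyte identity moved less than the reactive genes.

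Some genes of digestion, membranes and metals that phagocytes and reactive glia use were lower too. Among cathepsins and lysosomal genes 8 of 20 were at least 2-fold lower, with a median step of -0.81, among them the cholesterol-binding protein gene Npc2 (-1.92), the progranulin gene Grn (-1.60) and the protease gene Ctsd (-1.33). Among annexins and S100 genes 7 of 15 were, with a median of -0.92. S100a4 stood at 0.73 at day 35 against 4.12 at day 21, 10.5-fold lower, and Anxa1, which encodes an anti-inflammatory membrane-binding protein, at -3.36 against -0.25 on the same arrays. The metallothionein genes Mt2A and Mt1, whose products bind zinc, had steps of -2.06 and -1.69, and Hmox1, the heme-degrading enzyme, one of -1.12. The growth factor gene Igf1, which phagocytes make, had a step of -2.71. In the cell cycle list 7 of 18 were at least 2-fold lower, with the mitotic kinase gene Cdk1 at -1.35. In the matrix list 3 of 13 were, with Mmp2 at -1.37 but -0.66 at its other probe.

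Several lists had few members past the threshold. Heat shock and unfolded protein genes had a median step of -0.02 and 2 of 20 at least 2-fold lower, which were the stress factor gene Atf3 (-1.99) and the small heat shock gene Hspb1 (-1.38). Hypoxia genes had a median of 0.06, with the hexokinase gene Hk2 (-1.31) and Adm lower and Hif3a (1.18) higher, of 18 compared. Lipid efflux genes had a median of -0.09 and 2 of 17 lower, the oxysterol-making gene Ch25h (-1.91) and Lcat (-1.40). Apoptosis genes had a median of -0.32 with 3 of 17 lower, of which Casp4 (-1.62) and Casp1 (-1.36) encode inflammatory caspases. Oligodendrocyte genes had a median of -0.16 and endothelial and pericyte genes one of -0.07, with none of 15 and none of 23 at 2-fold. The circadian clock list had a median of 0.10, which turned to -0.02 with normexp correction, with the repressor gene Bhlhe41 lower (-1.25) and Tef higher among 17. Glucocorticoid response genes had a median of 0.04 and 1 member at 2-fold, Hif3a, which was higher. Iron and metal genes had a median of -0.36, with 3 of 10 lower. Antioxidant genes (-0.12), amyloid and tau genes (0.03) and oxidative phosphorylation genes (0.10) likewise had no member at 2-fold.

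Neuronal genes were above their day 21 level at day 35 by small amounts, and none of the synaptic lists had a member at 2-fold. Synaptic vesicle genes had a median step of 0.28 with 15 of 19 above 0, and glutamate receptor and postsynaptic genes one of 0.24 with 17 of 21 above 0, beside a median of 0.02 and 7383 of 13878 above 0 for all genes. Napa, a factor that recycles SNARE fusion complexes, stood at 1.83 at day 35 against 1.14 at day 21, and Syn1, which tethers vesicles, at 0.31 against -0.22 on the same arrays. The postsynaptic scaffold gene Dlg4 stood at -2.01 at day 35 against -2.76 at day 21. Gria1, an AMPA receptor subunit read from 10 spots, stood at 1.74 at day 35 against 1.28 at day 21, and the NMDA receptor subunit gene Grin1 had a step of 0.51, with 0.72 at its other probe. Among pyramidal cell markers, with a median of 0.22, the largest step was that of Wfs1, at -0.12 at day 35 against -1.03 at day 21. Neuroblast genes had a median of 0.38, or 0.15 with normexp correction, with 7 of 8 above 0. Their largest step was that of the calcium-binding protein gene Calb2, which is also a gene of thalamic and other neurons, at 0.76. The neurotrophin gene Bdnf had a step of 0.57. Smaller medians were found for GABA signalling (0.12), dentate granule cell (0.07) and immediate early genes (0.05), with no member at 2-fold. Markers of the neighbouring thalamus and striatum had a median of 0.18, also with no member at 2-fold. The vesicle and glutamate medians stood close to the median of the later arrays at day 35, by 0.03 in each list, but single later arrays differed. Relative to day 21, the vesicle median was 0.24, 0.12 and 0.30 at days 45, 55 and 70. The glutamate median was 0.08, 0.30 and 0.22 on the same arrays.

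Few rises were large and measured in every version of the values. Hcfc2, which encodes a relative of the transcription cofactor HCF-1, stood at -1.46 at day 35 against -4.51 at day 21, 8.28-fold higher. This rise was read from 1 spot on each of these arrays, with no other probe compared. On the other arrays Hcfc2 lay between -1.41 and -1.17, so the day 21 array alone was low. Nsd2, a histone methyltransferase gene, showed the same form, at -1.59 at day 35 against -3.85 at day 21, but its other probe had a step of 0.26. Plac9 stood at -0.27 at day 35 against -2.46 at day 21, with 2.07 as the step of its other probe. Tef, a clock-controlled transcription factor gene read from 10 spots, stood at 2.26 ± 0.05 at day 35 against 0.34 ± 0.05 at day 21 (SD over spots, 10 spots on each array), 3.8-fold higher. Its levels were 1.33 in the control pool and 1.83, 0.82 and 0.50 at days 45, 55 and 70, so day 35 was the highest of the 6. The splicing factor gene Prpf19 had a step of 1.58. Arid3a had the same step at its main probe and 0.00 at its other, and C9h6orf141 had 1.37 and 0.21, so those 2 rises rest on 1 probe. Day 21 was the lowest of the 6 arrays in 32 of the 74 rises measured on both arrays, and day 35 the highest in 24. Over all genes compared, day 35 was the highest in 14.6%. Choosing genes for a day 35 level above the day 21 level raises both counts by construction.

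Where the genes stood at day 35 against what came later sorts them into full, partial and overshooting returns. The later level is the median of days 45, 55 and 70, and day 35 counted as at it within 0.5 log2. Since day 35 enters both the step and this difference, low day 35 readings favour an overshoot by construction. Day 21 enters both the step and the distance to the later level, so a single high day 21 reading favours a full return by construction. Of the 459 lower genes measured on both arrays, 392 (85.4%) were at the later level at day 35. Another 39 (8.5%) were part way, 17 (3.70%) were beyond it, and for 11 (2.40%) the later level was not apart from day 21. The sizes of the part-way and beyond classes changed with the processing. With normexp 3 genes were part way and 3 beyond, with quantile normalization 10 were part way and 55 beyond, and 6 were part way in the authors' deposited table. With day 45 alone as the later level 50 were beyond it. Over the 448 genes outside the last class the step covered a median of 105% of the log2 distance from day 21 to the later level, with 76.5% at the 10th and 127% at the 90th percentile. Among all genes with a measured day 35 and later level, 12819 in all, the median difference was 0.01. Of them 925 were over 0.5 above the later arrays at day 35, the side of the part-way lower genes, and 117 over 0.5 below. The rest lay within 0.5, so the 85.4% of lower genes at the later level was no higher than the share of all genes. These counts over all genes left out genes dim on most later arrays, while the classes of the lower genes did not. Only 15 of the 39 part-way genes were well above background on all 3 later arrays. The part-way share of the lower genes therefore cannot be set beside that of all genes.

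**Figure D3:**
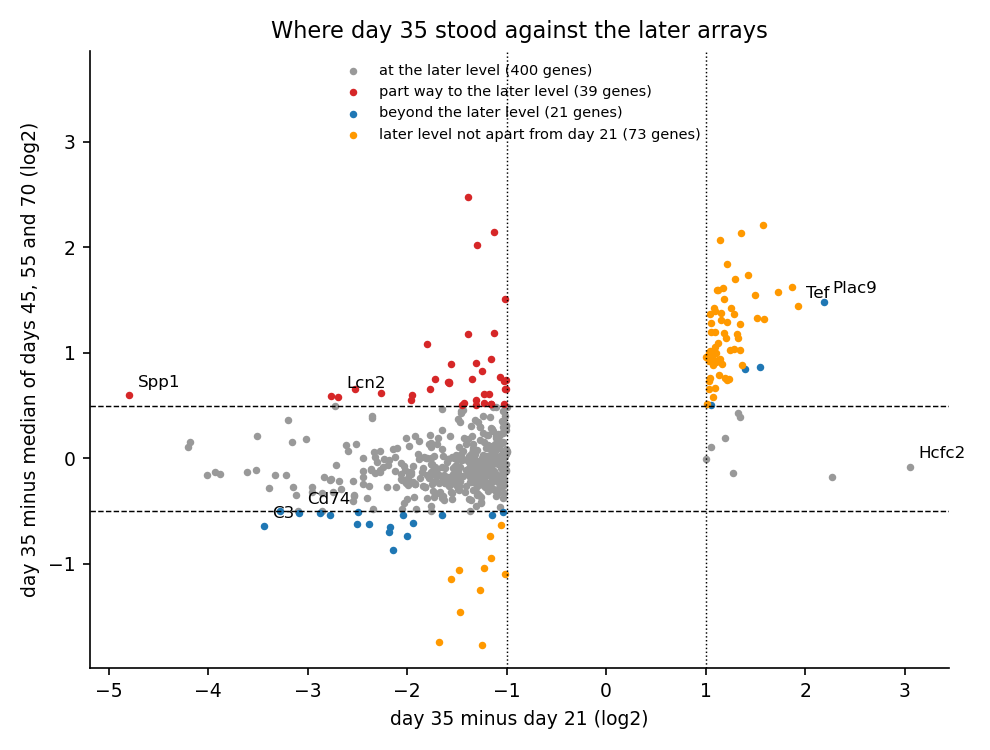
Day 35 minus the median of days 45, 55 and 70 (vertical axis, log2) against day 35 minus day 21 (horizontal axis, log2) for the genes at least 2-fold apart and measured on both arrays; dashed lines mark 0.5 log2 and dotted lines 2-fold. Lower genes gather between the dashed lines (392 of 459), while 62 of the 74 higher genes lie apart from the later arrays, near their own step.

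The genes part way were mostly dim on the later arrays, since 15 of the 39 were well above background on all 3. Spp1, Lcn2 and Ifitm1 were among these, each 0.59 to 0.66 above the later level. Ifitm1, an interferon-induced membrane protein gene, stood at -2.76 at day 35 against -0.24 at day 21, with -3.42, -3.08 and -3.45 at days 45, 55 and 70. Kcnn4, a calcium-activated potassium channel gene of immune cells, stood at -5.89 at day 35 against -3.62 at day 21, with a step of -2.13 at its other probe. None of the later arrays read it well above background, so its class rests on a bound. The receptor antagonist gene Il1rn, the acute-phase gene Serpina3n and the hexokinase gene Hk2 were also part way. V1rm4, a vomeronasal-type receptor gene at -5.23 at day 35 against -3.28 at day 21, belongs to a large family of similar genes, and its name is uncertain.

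The 17 genes beyond the later level included antigen presentation and myeloid genes. C3 lay 0.64 below the later median, Cd74 0.51 and Ms4a6a 0.62, and Mpeg1, the gene of a pore-forming protein of macrophages, 0.52. Cd74 stood at -2.55 at day 35, and at -1.23, -2.03 and -2.33 at days 45, 55 and 70. The highest of those later levels was day 45, as it was for RT1-Bb at -2.75, -3.17 and -3.59. Clec12a, an inhibitory lectin receptor gene of myeloid cells, stood at -4.46 at day 35 against -1.18 at day 21, and at -4.01, -3.72 and -3.96 at days 45, 55 and 70. Most of these overshoots are only a little over 0.5, with a median of -0.54, and with a tolerance of 1 log2 unit none was left.

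**Figure D4:**
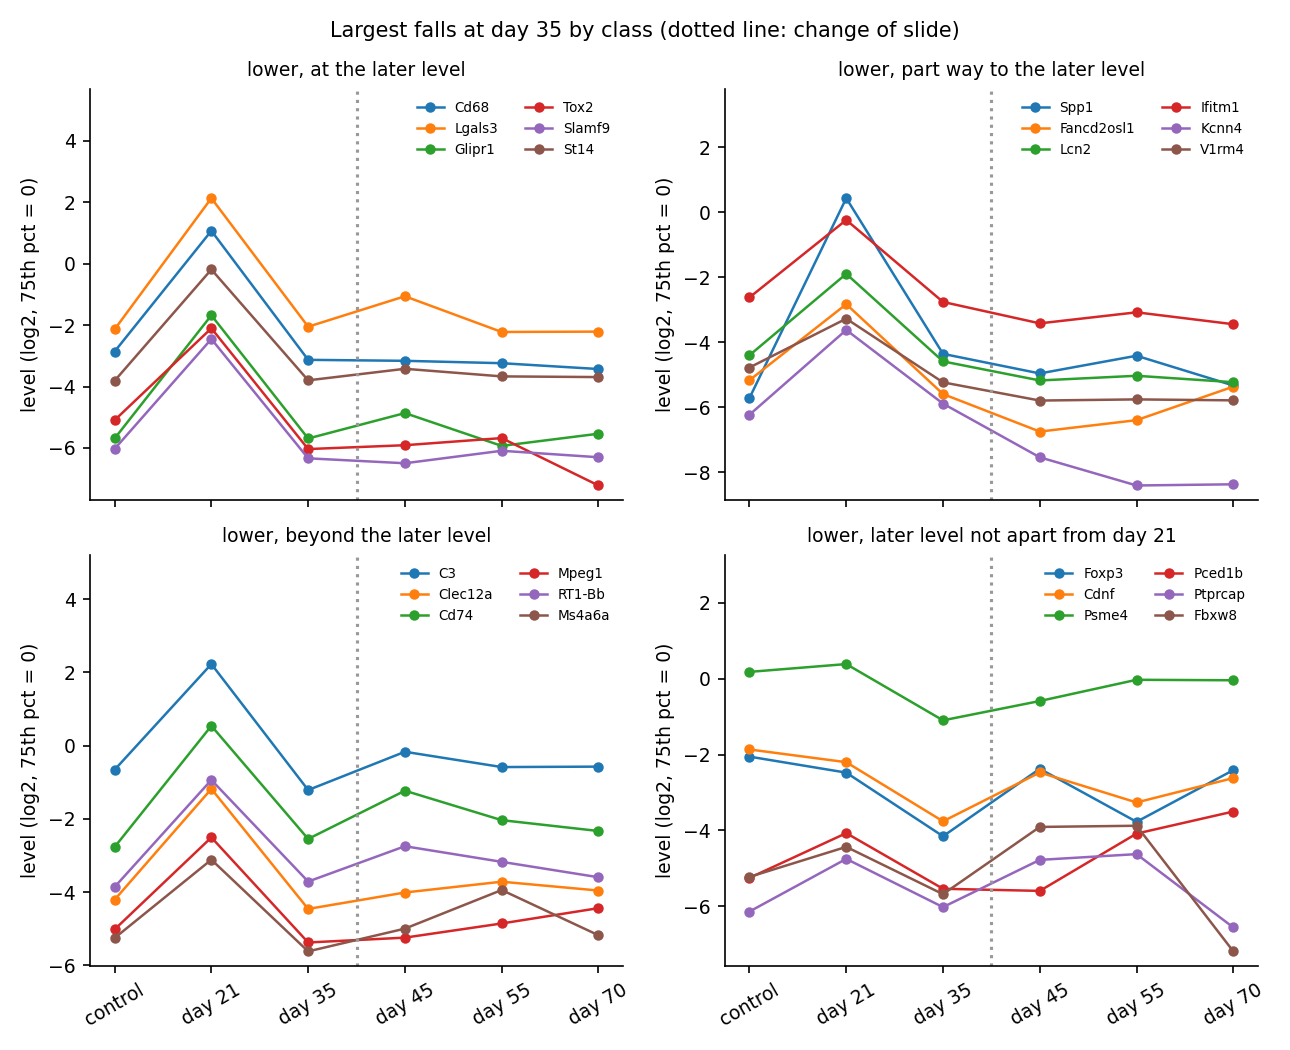
Levels (log2, 75th percentile of each array at 0) of the 6 lower genes with the largest step in each return class on the control array and at days 21, 35, 45, 55 and 70, with a dotted line where the slide changes. Cd68 stays near its day 35 level later on, Lgals3 stands at -1.06 at day 45 against -2.05 at day 35, Spp1 and Lcn2 go somewhat lower, C3 and Cd74 stand higher at day 45, and Foxp3 and Cdnf are low at day 35 and, less so, at day 55.

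In 11 lower genes the median of the later arrays was not apart from day 21, although single later arrays could be low too. Foxp3, the transcription factor gene of regulatory T cells, stood at -4.15 at day 35 against -2.47 at day 21, with -2.37, -3.77 and -2.41 at days 45, 55 and 70. Cdnf, a neurotrophic factor gene, stood at -3.76 at day 35 against -2.20 at day 21, with -2.47, -3.26 and -2.62 later. Foxp3 and Cdnf were each read from 1 spot at day 35 and at day 21, with no other probe compared. Whether the Foxp3 signal came from T cells was not tested. Psme4, a proteasome activator gene, had a step of -1.48 but -0.36 at its other probe. Of the 74 higher genes measured on both arrays, 62 (83.8%) had a later median not apart from day 21, 8 were at the later level and 4 beyond it. Hcfc2 and Nsd2 were at the later level and Plac9, 1.49 above the later median, beyond it. Tef and Hif3a were among the 62, and so were the dimmer genes Car15, Zfp516 and Lce1e. The steps of Car15, Zfp516 and Lce1e were 1.87, 1.73 and 1.51, but 0.81, 0.63 and 0.75 with normexp correction. Each stood higher on the control and day 35 arrays than on the others. Car15, for example, stood at -2.99 in the control, -5.05 at day 21 and -3.19 at day 35, and at -4.81, -4.78 and -4.93 later. Hif3a, which encodes a variant hypoxia-inducible factor subunit, stood at -4.29 at day 35 against -5.47 at day 21, and at -5.86, -5.29 and -5.48 later. Its step of 1.18 was 0.41 with normexp correction and 1.00 (just under 2-fold) in the authors' deposited table.

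Many markers of the meninges and some of the choroid plexus, which border the hippocampus, were lower at day 35 too. In the meningeal and fibroblast list the median step was -1.17, with 10 of 16 at least 2-fold lower, such as Col3a1 (-2.59) and Col1a2 (-1.98), which encode fibrillar collagens, and Igfbp2 (-1.89), which encodes a carrier of insulin-like growth factors. All 9 of the 2-fold lower members measured on both arrays were at the later level at day 35. Col1a1 had a step of -1.14 and -2.72 at its other probe. For choroid plexus genes the median step was -0.89, with 5 of 15 at least 2-fold lower. Ttr, the thyroid hormone carrier transthyretin of that epithelium, stood at 4.69 at day 35 and was saturated at day 21 at 5.66, so it was at least 1.96-fold lower. Its levels were 1.53 in the control, 1.5 and 1.48 at days 45 and 55, and 5.44 at day 70. Sostdc1, read from 10 spots, stood at -3.71 at day 35 against -2.32 at day 21, and at -2.63 at day 70, with readings of -7.03 and -6.57 at days 45 and 55. Kcnj13 and F5 had the same form, so the classification of these 3 genes as part way rests on the low arrays of days 45 and 55. For red blood cell genes the median step was -0.38, with all 8 lower and none by 2-fold, and day 35 stood 0.56 above the later arrays, where the median of the members was lowest at day 45. The part of border tissue and blood in the steps of other genes was not tested.

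**Figure D5:**
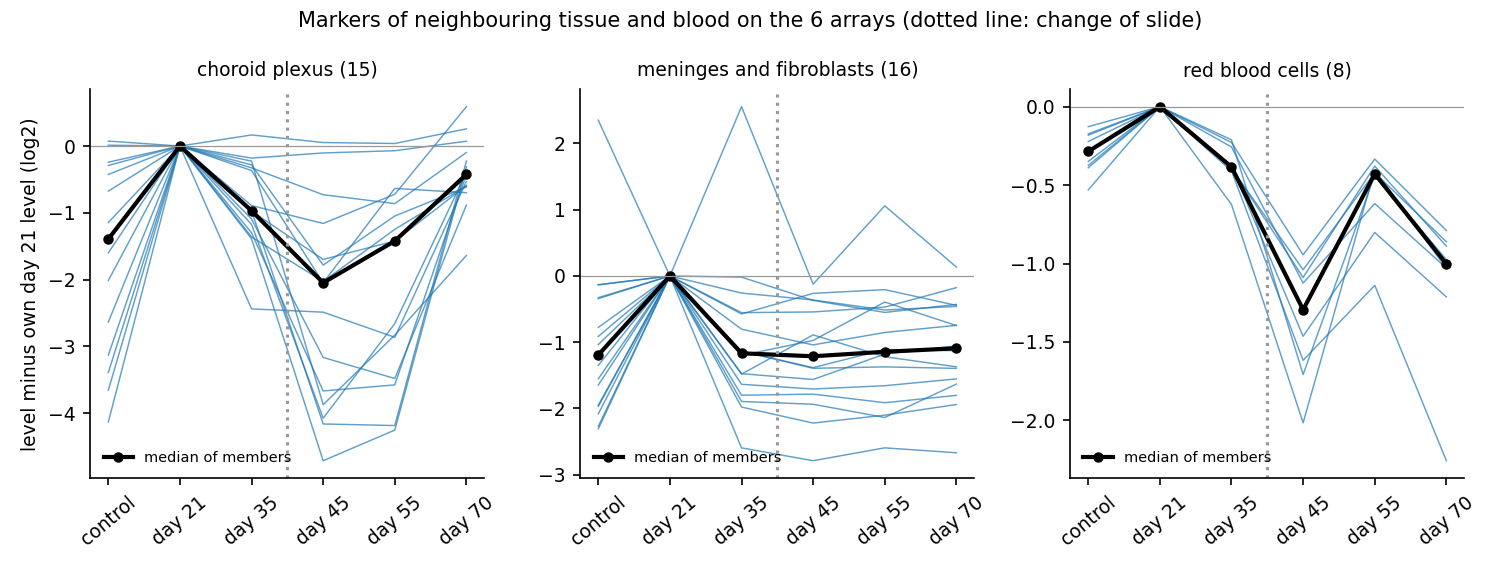
Level of each member minus its own day 21 level (log2) for choroid plexus, meningeal and red blood cell genes on the 6 arrays in order of time, with the median in black and a dotted line where the slide changes; signals not well above background are drawn as read. Meningeal genes had a median of -1.17 at day 35 and stayed near it, while choroid plexus genes went to -0.97 at day 35, -2.05 at day 45 and -0.42 at day 70.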

How the data were processed

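Each of 6 arrays held labelled RNA pooled from 1 group, and groups were taken from the sample titles. Per the file headers, the authors read each array (design 028282, probe positions in rn4) using Agilent Feature Extraction 10.7.3.1, and the deposited intensity is a processed signal from which a fitted spatial background surface had been subtracted, followed by a correction for trends across the array. Labels name Cy5, but the files hold the green channel. The authors also deposited a table of linear intensity values, used here as an alternative; the labels do not say how it was normalized.

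From the deposited intensity, log2 values minus the array's 75th percentile were computed after leaving out control and outlier-marked spots, and spots of a probe were averaged. Probes (30367) were named through RefSeq (GRCr8) by accession (17328), symbol (2635) or synonym (718), 183 kept the file's name and 9503 had none. A gene took its probe with the highest mean over the arrays. A dim or saturated side gave a bound, from the higher of the array's lowest signal well above background and the probe's own. Genes at least 2-fold apart were called. Tools were Python 3.11.15, pandas 2.3.3, numpy 2.4.6, matplotlib 3.10.9, and limma 3.58.1 in R 4.3.3 for normexp (offset 50). The calculation of differences and return classes was checked on simulated data. No test was possible with 1 array a group, and precision is limited by the number of arrays.

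The lists, their members and the comparison were chosen with earlier results of these data known. Genes named are the 12 largest falls and rises holding in all 3 versions of the values (only 10 rises did), the 4 largest steps of each list with fixed markers, the 6 largest of each return class, and the largest bounds among probes printed 10 times. Trem2, Tyrobp, Cx3cr1, C1qa, C1qb, C1qc, Igf1, Ctsd, Tnf, Bdnf, Il1rn, Serpina3n, Numbl and Havcr2 fall outside that rule; the first 12 were chosen after their values were seen and the others lie next to the threshold. Alternatives covered background, scaling, filters, outlier spots, probe choice, thresholds and the later level. Some items are not reported here.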

Additional observations from a re-analysis of the deposited data

How the results depend on the processing

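No paired analysis was possible because each group has 1 array. The list medians kept their sign under the alternatives except 4 near zero. The circadian clock list went to -0.0238 with normexp and the lipid efflux list to 0.0023 with quantile normalization, and with the array median as zero the endothelial and heat shock lists stood at 0.0075 and 0.0545; the cause was not tested. With normexp background correction 301 genes were lower and 18 higher, and 299 and 17 of these were among the 617 and 143. Its lower genes were at the later level in 251 cases, beyond it in 3, part way in 3 and not apart from day 21 in 3, and its higher genes were at it in 3, beyond it in 1 and not apart in 7. The authors' deposited table gave 386 lower and 70 higher genes, with 6 lower part way and 5 not apart, and 7 higher beyond and 29 not apart. Quantile normalization put 55 lower genes beyond the later level and 10 part way, and of the higher genes 32 at it and 27 beyond it. With the array median as zero, which moved the median of all genes to 0.10, these were 17 and 10 of the higher genes. Higher genes numbered 74 when both arrays had to be well above background, and 448 with no filter on dim probes, where lower genes numbered 904. Lower and higher genes were 1248 and 545 at 1.5-fold, and 259 and 31 at 3-fold. With a tolerance of 1 log2 unit 0 lower genes were beyond, 7 part way and 62 not apart, and 5 higher genes were at the later level and 0 beyond it. With day 45 alone as the later level 50 lower genes were beyond it, and with day 70 alone 0 higher genes were. Of the named genes, 57 moved with normexp and 35 with the deposited table. The median step of phagocyte genes ranged from -2.54 to -1.64 over the alternatives. Signal over background limits the dim genes, which hold most of the higher calls.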

Other observations

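Probes that matched no gene name moved in the same directions. Of 6649 such probes compared, 230 (3.46%) were at least 2-fold lower at day 35 and 112 (1.68%) at least 2-fold higher. Of the 617 lower genes 475 belonged to none of the 38 lists, and of the 143 higher genes 140. The lists held 589 compared genes counted once, of which 142 were lower and 3 higher.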
